A study of Homo sapiens with 21 samples.

Results

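The AP-1 genes are the 9 genes JUN, JUNB, JUND, FOS, FOSB, FOSL1, FOSL2, ATF3 and BATF, chosen by name from the 19974 protein-coding genes of the RefSeq table. Their loci were read in 14 peak lists from CAMA1 cells: every listed peak inside the gene, within 1 kb of either end, or within 20 kb outside it (hg38). AP-1 is a dimer of basic leucine zipper proteins that binds DNA. JUN, JUNB and JUND pair with each other or with the FOS-type proteins, whereas FOS-type proteins need a JUN-type partner, and ATF3 and BATF also pair with JUN proteins. Many of these genes are immediate early genes, switched on within minutes by growth factor signalling through ERK and related kinases, and AP-1 acts at many oestrogen-responsive and growth-responsive genes of breast cells.

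CAMA1 is an established human breast cancer cell line, oestrogen receptor-positive and with an amplified FGFR1 gene per the labels, and all samples come from this line. Chromatin immunoprecipitation with sequencing (ChIP-seq) was done for FGFR1 (a fibroblast growth factor receptor), for H3K4me3 (a histone mark of promoters), for H3K27ac (found on active enhancers as well as promoters), for Pol II S5P (RNA polymerase II phosphorylated at serine 5, found at starts of transcription) and for FOXA1 (a pioneer factor of luminal breast cells). These 5 groups were untransfected. Another 2 groups were FGFR1 ChIP-seq in cells collected 72 h after they received siFOXA1, an siRNA that targets FOXA1, or siNT, its non-targeting control. Every group, transfected or not, was kept without estradiol for 48 h before collection, and each had 2 libraries with 1 peak list each. FOXA1 was profiled in untransfected cells only, so the extent of the knockdown was not checked here. The labels leave unsaid whether a pair of libraries shares a culture.

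The untransfected FGFR1 lists held 5341 and 13135 peaks, the siNT lists 6007 and 6594, and the siFOXA1 lists 4332 and 5056. The untransfected lists of the other targets held 12267 to 154358 peaks. Read totals are not used here. The background of the FGFR1 lists, a stand-in for depth, was 3.40 and 3.50 fragments per position in untransfected cells and 2.11 to 2.20 after transfection. Except for Pol II S5P, whose background was not recovered, the deposited p-values matched a single background for the whole genome, so that copy number and enrichment cannot be told apart at any locus. Of 9 luminal marker genes, 8 carried H3K4me3 and H3K27ac at an end, the exception being ESR1. Only the ends of a gene's annotated span were read, so marks inside ESR1 would not have counted. Of 6 basal or mesenchymal markers ZEB1 and CDH2 were marked, of 6 haematopoietic markers SPI1 and CD14, of 3 endothelial markers none, and of 2 hepatic markers APOA1. Over all protein-coding genes, 66.6% had H3K4me3 and 67.5% had H3K27ac at an end. The share with both marks was not computed.

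The 250 bases upstream of the start listed by RefSeq (GRCh38.p14) are shown for 4 genes. JUNB, JUND and FOSL2 are those whose start lay in an FGFR1 region, and BATF had the highest FOXA1 folds at an end and no FGFR1 peak. Each sequence reads 5′ to 3′ along the gene's strand and ends at the base before the start. Capitals mark matches, on either strand, to an AP-1 site with letters TGANTCA, a cAMP response element with letters TGACGTCA, a forkhead motif with letters TGTTTAC, the TATA box with letters TATAAA, the CCAAT box with those letters and a GC box with letters GGGCGG.
JUNB (chr19:12791236-12791485, plus strand): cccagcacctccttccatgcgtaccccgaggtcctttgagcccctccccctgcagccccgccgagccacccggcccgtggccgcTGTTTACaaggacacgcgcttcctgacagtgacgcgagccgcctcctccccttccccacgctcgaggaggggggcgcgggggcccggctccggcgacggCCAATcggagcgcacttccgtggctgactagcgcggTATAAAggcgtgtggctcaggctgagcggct
JUND (chr19:18281623-18281872, minus strand): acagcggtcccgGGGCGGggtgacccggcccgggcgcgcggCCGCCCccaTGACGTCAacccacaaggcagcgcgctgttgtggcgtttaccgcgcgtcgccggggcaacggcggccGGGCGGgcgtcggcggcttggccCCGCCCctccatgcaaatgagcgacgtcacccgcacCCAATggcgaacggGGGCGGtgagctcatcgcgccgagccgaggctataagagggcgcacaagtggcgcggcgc
FOSL2 (chr2:28392608-28392857, plus strand): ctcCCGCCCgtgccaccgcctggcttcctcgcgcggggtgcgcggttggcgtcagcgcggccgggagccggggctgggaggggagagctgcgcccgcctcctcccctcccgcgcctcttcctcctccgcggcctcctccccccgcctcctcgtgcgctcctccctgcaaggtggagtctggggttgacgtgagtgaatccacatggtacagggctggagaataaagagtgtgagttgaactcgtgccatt
BATF (chr14:75522219-75522468, plus strand): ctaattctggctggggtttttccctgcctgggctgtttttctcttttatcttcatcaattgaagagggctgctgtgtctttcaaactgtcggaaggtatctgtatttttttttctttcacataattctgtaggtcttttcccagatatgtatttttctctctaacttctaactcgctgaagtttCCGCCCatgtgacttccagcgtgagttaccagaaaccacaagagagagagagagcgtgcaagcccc
No 2 matches overlapped. The JUNB sequence holds a forkhead match at -166 to -160 from the start, a CCAAT box at -67 to -63 and a TATA box at -31 to -26. JUND holds a cAMP response element at -200 to -193, 5 GC boxes and a CCAAT box at -74 to -70. FOSL2 and BATF hold 1 GC box each, on the opposite strand. Among 34961 listed starts of the table, 2.98% hold the forkhead letters in this window, 1.65% the cAMP response element, 10.7% the TATA box, 32% the CCAAT box, 42.7% the GC box and 6.54% the AP-1 site. The AP-1 site was not among the matches in the window of any of the 8 AP-1 genes with a listed start. The JUNB and JUND windows are 70.8% and 74.8% G and C, FOSL2's is 69.6% and BATF's 43.2%, beside a median of 58.4% over all listed starts.

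Most of the 9 genes carried promoter marks and FOXA1, and fewer carried Pol II S5P or FGFR1. A region is called reproducible below where peaks of both lists of a group overlap by at least 1 bp, and an end is the annotated start or end of the gene with 1 kb to each side. H3K4me3 and H3K27ac were reproducible at an end of 8 of the 9 genes, beside 66.6% and 67.5% of all genes. FOXA1 was also reproducible at an end of 8 of the 9, beside 32.3% of all genes. Pol II S5P was reproducible at 4 of the 9 (JUN, JUNB, JUND and FOSL2), beside 38.9%. FGFR1 was reproducible at 3 of the 9 (JUNB, JUND and FOSL2), beside 19.9%, which for 9 genes is near the background. ATF3 was the gene without a peak at its ends in any of the 14 lists. Its regions inside the gene, described below, do not enter these counts, and a start there could be missing from the table.

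The counts at either end can also be set beside the 13303 genes with H3K4me3 at an end. Of these, 29.9% had FGFR1, 58.2% Pol II S5P and 43.8% FOXA1 at an end, beside 3, 4 and 8 of the 8 marked AP-1 genes. FOXA1 at an end was not always FOXA1 at the start. Of the 8 AP-1 genes with a listed start, 5 had a reproducible FOXA1 region within 1 kb of it (JUNB, JUND, FOSB, FOSL2 and BATF), beside 30.5% of 15812 genes with a listed start. The share at starts among genes with H3K4me3 was not computed. For JUN and FOS the reproducible FOXA1 region near an end lay past the 3′ end. FOXA1 was at an end of 6 of the AP-1 genes with a window of 500 bp. With a -log10 q of at least 5 it was at an end of 7.

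**Figure D1:**
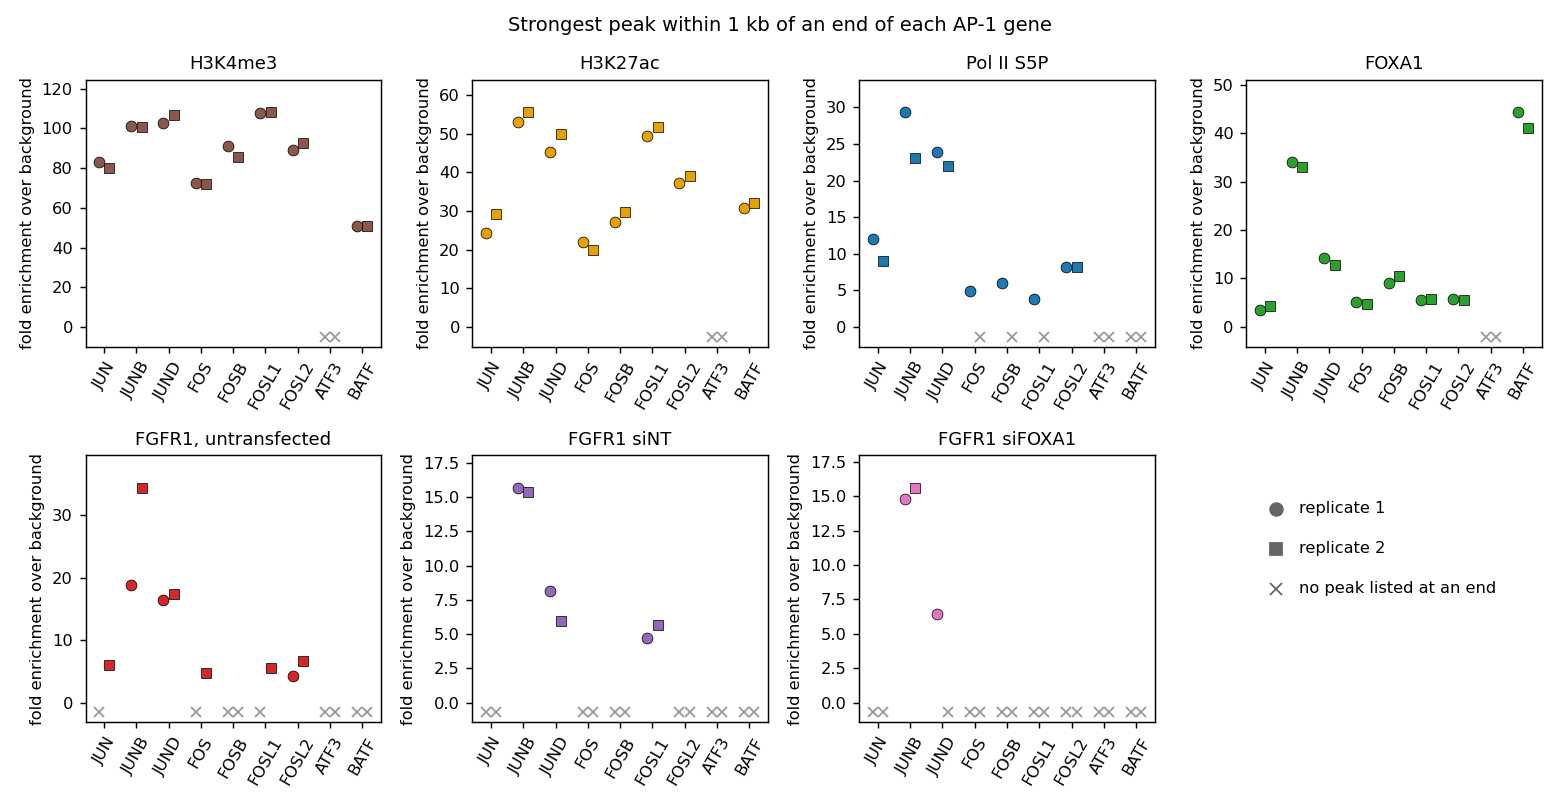
Fold enrichment over background (vertical axis, linear, a scale for each panel) of the strongest peak within 1 kb of an end of each AP-1 gene, in each of the 2 lists of the 7 groups; circles are replicate 1, squares replicate 2, and crosses below 0 mark a list without a peak. H3K4me3 reached 50.8 to 108 at 8 genes, whereas FGFR1 in untransfected cells was in both lists at JUNB, JUND and FOSL2 only. The H3K4me3 fold of 108 is that of FOSL1, at its lower-coordinate end over the start of CCDC85B.

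JUNB, a JUN-type partner whose gene is a common early response gene, had the highest FGFR1, Pol II S5P and H3K27ac folds at an end of the 9 genes. It had a peak at an end in all 14 lists. Its strongest FGFR1 peaks had folds of 18.9 and 34.4 over background in untransfected cells, in replicates 1 and 2. They ranked at the 99.1 and 99.9 percentiles of their lists. After transfection the folds were 15.7 and 15.4 with siNT and 14.8 and 15.6 with siFOXA1. The siNT and siFOXA1 values overlapped, and the untransfected replicates differed more from each other than siNT from siFOXA1.

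The JUNB start region of FGFR1 was chr19:12791203-12792044, which is -283 to 558 from the listed start and covers the whole sequence shown for JUNB. FGFR1 summits lay at -49 and -61 in untransfected cells, -94 and -54 with siNT, and -85 and -54 with siFOXA1. All 6 lay upstream of the TATA letters. FOXA1 had folds of 34.0 and 33.0 in a region at -361 to 61, with summits at -157 and -153, which is 6 and 10 bp from the centre of the forkhead match. Pol II S5P had folds of 29.4 and 23.1, with summits at 44 and 42, downstream of the start. The order FOXA1, FGFR1, Pol II S5P along the gene was also that of the medians over all gene starts, which were -115 and -117 for FOXA1, -44 and -43 for FGFR1, and 31 and 27.5 for Pol II S5P.

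H3K4me3 at JUNB had a fold of 101 in both lists and spanned 6162 and 6209 bp, beside list medians of 774 and 791 bp. H3K27ac had folds of 53.2 and 55.7 in peaks of 15039 and 14006 bp, beside medians of 467 and 463 bp. The widths put JUNB above the 99th percentile of each of these 4 lists, at 99.6, 99.6, 99.7 and 99.7. The annotated span of HOOK2, a neighbouring gene, overlaps JUNB in part and has a listed start inside it, so the marks there cannot be assigned to 1 of the 2 genes. Past the 3′ end of JUNB, FGFR1 had a second region at 1847 to 2843 with folds of 5.0 and 11.8, beside Pol II S5P folds of 10.9 and 9.90 in a region at 717 to 2779. Another FGFR1 region, at -9066 to -8489 inside HOOK2, had folds of 8.19 and 13.5, then 6.28 and 6.58 with siNT and 5.79 and 6.25 with siFOXA1. It overlapped H3K4me3 and H3K27ac and neither Pol II S5P nor FOXA1. The other 3 FGFR1 regions of the JUNB locus were weaker, with 4.32 and 4.66 at a start of HOOK2, 5.0 and 6.0 inside HOOK2, and 5.46 and 7.99 at PRDX2.

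JUND, the JUN-type gene usually described as constitutively expressed, showed the same set of features at its start with fewer FGFR1 peaks in the siFOXA1 lists. FGFR1 covered chr19:18281202-18282325, -703 to 420 from the start, with folds of 16.4 and 17.3 and summits at 70 and 52. The 2 untransfected values were close and ranked at the 98.5 and 98.2 percentiles. Pol II S5P had folds of 23.9 and 21.95 with summits at 40 and 60. FOXA1 had folds of 14.2 and 12.7 with summits at -171 and -158, inside the sequence shown for JUND. That sequence holds no exact match to the forkhead letters TGTTTAC. It does hold CGTTTAC, which differs in the first letter, and near matches were not searched. H3K4me3 had folds of 103 and 107 and H3K27ac 45.3 and 49.8.

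At the start of JUND, the siNT lists had folds of 6.28 at -144 to 280 in replicate 1 and 5.95 at -549 to -326 in replicate 2. These peaks did not overlap, so no reproducible siNT region was counted there. The siFOXA1 lists had a fold of 5.15 at -428 to -229 in replicate 1 and no peak in replicate 2. JUND had 2 further FGFR1 regions, at 979 to 1455 inside the gene (5.91 and 8.44) and at 1796 to 2360 across its 3′ end (6.37 and 6.88). Both were reproducible with siNT, at 6.59 and 5.33 for the first and 8.16 and 5.95 for the second. With siFOXA1 replicate 1 kept a peak of 6.43 at the second and no peak at the first, and replicate 2 had none at either. JUND was the one AP-1 gene with reproducible siNT regions and no reproducible siFOXA1 region.

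JUN, the founding member of the family, was marked and carried Pol II S5P but had little FGFR1. Untransfected FGFR1 had no peak at JUN in replicate 1, and folds of 6.0 at -224 to 161 and 3.55 at -667 to -464 in replicate 2. No transfected list held a peak in the JUN locus. Pol II S5P had folds of 11.98 and 9.01 at the start, with summits at 58 and 46, and a second region at -685 to -247 toward the divergent transcript JUN-DT with 5.15 and 6.11. The H3K4me3 peaks were 5871 and 5201 bp wide with folds of 83.0 and 80.0, and H3K27ac had 24.2 and 29.3. FOXA1 was low here, with folds of 3.55 and 4.31 at 3779 to 4268, past the 3′ end.

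**Figure D2:**
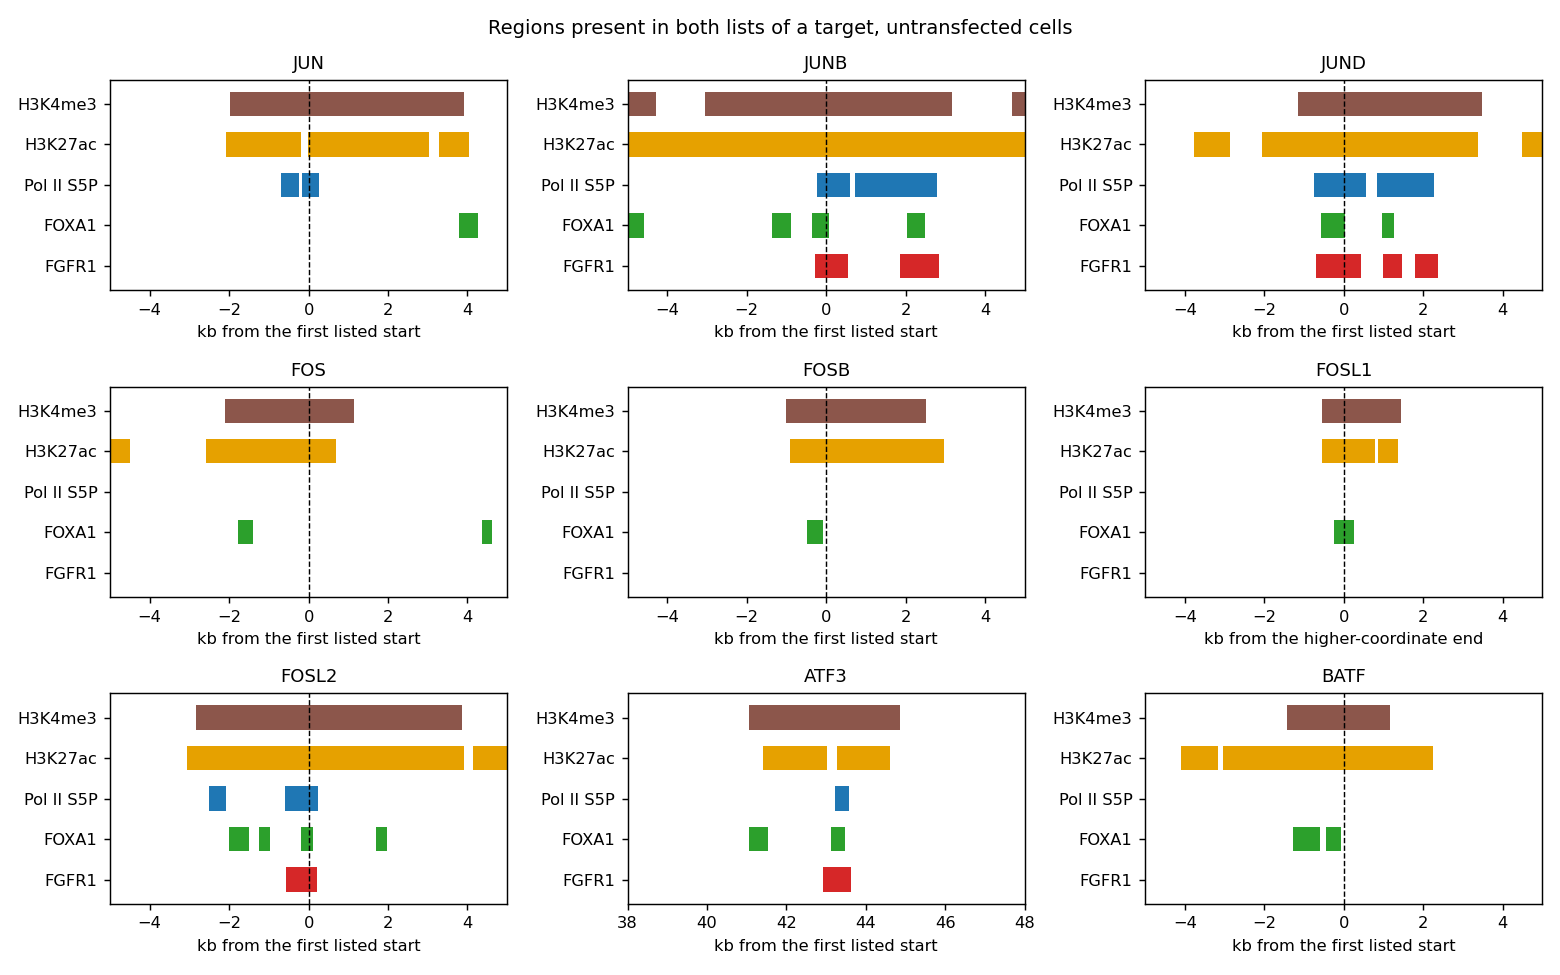
Reproducible regions (bars) of the 5 untransfected groups within 5 kb of the listed start of each AP-1 gene, in kb along the gene's direction; for FOSL1 the zero is the higher-coordinate end and for ATF3 the window runs from 38 to 48 kb past the first listed start. JUNB, JUND and FOSL2 show FGFR1 over the start together with the other 4 features, and ATF3 shows the same set inside the gene.

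FOSL2, which encodes the FOS-type protein FRA-2, was the third gene with FGFR1 at its start, at lower folds. The region chr2:28392301-28393078 (-557 to 220) had FGFR1 folds of 4.32 and 6.66, at the 23.5 and 71.1 percentiles of the lists. It was lost at a -log10 q of at least 5, where its replicate 1 peak had 4.84, and at a reciprocal overlap of 50%. No peak of any transfected list lay in the locus. Pol II S5P had folds of 8.24 and 8.12 at the start, with summits at 43 and 27, and a second region at -2508 to -2071 with 6.26 and 5.22. FOXA1 had 4 regions from -2005 to 1982, all between 5.25 and 6.68 in both lists. The promoter was broad: H3K4me3 peaks were 6682 and 6640 bp wide, with folds of 89.0 and 92.4, the widest of the 9 genes.

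FOS and FOSB, the classical early response genes of the FOS type, carried the promoter marks without reproducible FGFR1 or Pol II S5P at the ends. At FOS, replicate 2 of untransfected FGFR1 had a fold of 4.66 at -468 to -145, replicate 1 had none, and Pol II S5P had 4.93 at -76 to 154 in replicate 1 only. At FOSB, FGFR1 was listed in replicate 2 alone, with a fold of 5.77 at 1134 to 1761. Pol II S5P was listed in replicate 1 alone, with 6.03 at -139 to 146. That list also had 6.26 at 1431 to 1663, within the span of the FGFR1 peak, and 4.71 at 1877 to 2131. The FOSB FGFR1 peak lies outside the 1 kb window of the gene's ends. For both factors the longer list of each pair was the one that held these peaks. H3K4me3 had folds of 72.4 and 72.0 at FOS and 91.0 and 85.6 at FOSB. H3K27ac had 22.04 and 19.8 at FOS and 27.1 and 29.8 at FOSB.

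FOXA1 lay upstream of both genes. At FOS its promoter-side region was at -1779 to -1395, with folds of 22.5 and 21.9 and both summits at -1590. Within 1 kb of the FOS start only replicate 2 had a peak, of 4.69 at -225 to 67. At FOSB a region at -482 to -81 had folds of 8.97 and 10.5.

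FOSL1, which encodes FRA-1, had H3K4me3 folds of 93.4 and 95.9 over its higher-coordinate end, at -562 to 1438 counted from that end toward the gene. H3K27ac there had folds of 21.8 and 21.05, and FOXA1 had 5.63 and 5.81 at -243 to 252. FGFR1 had 5.55 in untransfected replicate 2 and 4.71 in siNT replicate 1, with summits at -19 and 39, and no peak at this end in the other FGFR1 lists. No Pol II S5P list held a peak at this end. The lower-coordinate end of FOSL1 lies next to CCDC85B, and its H3K4me3 (108 and 108) and H3K27ac (49.3 and 51.8) cover the start of that gene.

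BATF, a partner of JUN proteins known mainly from lymphocytes, had the highest FOXA1 folds at the ends of the 9 genes. The region chr14:75521200-75521868, -1269 to -601 from the start, had folds of 44.4 and 41.1, with summits at -851 and -858 and percentiles of 97.5 and 97.4. A second region at -439 to -76 had 15.2 and 12.9, with summits at -270 and -273, just upstream of the sequence shown. H3K27ac at the start had folds of 30.7 and 32.2. H3K4me3 had folds of 50.8 in both lists, the lowest of the 8 marked genes. No FGFR1 or Pol II S5P list, of 8 in all, held a peak within 20 kb of BATF.

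ATF3, a stress-induced factor that often acts as a repressor, had its marks inside the gene and upstream of it instead of at its ends. The RefSeq starts used here include 2 for ATF3, and neither lies in a marked region. They include none for FOSL1, so a start of ATF3 could also be missing from them. A stretch at 41068 to 44852 from the first start had H3K4me3 folds of 97.8 and 97.8. Within it Pol II S5P had 14.8 and 10.4 (summits at 43393 and 43387), FOXA1 11.3 and 7.5, and H3K27ac 36.2 and 36.5. FGFR1 covered chr1:212608317-212609036 in it, with folds of 8.19 and 15.5 and summits at 43380 and 43350. This region is 5982 bp from the nearest listed start, and it held the same 5 features as the starts of JUNB, JUND and FOSL2. FOXA1 summits, at 43280 and 43316, came before those of FGFR1 and Pol II S5P, as at JUNB. At JUND the FGFR1 and Pol II S5P summits were interleaved. Upstream, at -7656 to -5893, H3K4me3 had 93.7 and 93.9, Pol II S5P had 11.1 and 7.90, and FGFR1 had 5.0 and 5.11 at -6571 to -6202. None of the 4 transfected lists held a peak in the ATF3 locus.

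Within 20 kb of the 9 genes there were 18 reproducible FGFR1 regions, 63 of H3K27ac, 33 of H3K4me3, 19 of Pol II S5P and 45 of FOXA1. The medians per AP-1 gene were 1, 7, 3, 2 and 5, beside 0, 4, 2, 1 and 3 over all protein-coding genes. H3K27ac covered a median of 31.9% of an AP-1 locus, beside 6.68% over all genes. JUNB's locus held 6 of the FGFR1 regions, FOSL1's 5, JUND's 3, ATF3's 2, and those of FOSB and FOSL2 1 each. The neighbours add to these numbers, since the loci include the ends of other genes. All 18 FGFR1 regions overlapped H3K27ac, 17 overlapped H3K4me3, 14 Pol II S5P and 12 FOXA1. Over all 4736 FGFR1 regions the shares were 96.1%, 95.3%, 83.1% and 44.0%.

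The locus of FOSL1 held 5 of the 18 FGFR1 regions, all nearer to other genes. A region over C11orf68 and DRAP1 had folds of 17.3 and 23.1, one over FIBP, a gene named for binding a fibroblast growth factor, had 7.96 and 14.2, and one at CCDC85B had 9.78 and 13.8. Near EFEMP2 a weaker one had 4.09 and 6.66. The last, chr11:65884650-65884996, lies inside FIBP, 3475 bp from its nearest listed start, and was the FGFR1 region without H3K4me3. Its folds were 12.5 and 12.9 in untransfected cells, 24.2 and 23.2 with siNT and 13.5 and 11.9 with siFOXA1. Both siNT values were above the other 4, which did not separate between untransfected and siFOXA1. It had weak H3K27ac (5.03 and 4.6), FOXA1 (7.30 and 6.0) and no reproducible Pol II S5P.

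Outside FGFR1, several AP-1 loci held strong distal regions. Upstream of FOS, H3K27ac regions lay between -26712 and -9192, with folds of up to 24.2 and 26.9, and held FOXA1 at -19908 to -19194 with 15.2 and 17.8. Downstream of FOS, FOXA1 had 22.7 and 26.1 at 15179 to 15560, by the start of LINC01220. There FGFR1 was listed in untransfected replicate 2 alone, with a fold of 8.66. Downstream of FOSL2, an H3K27ac region of 10354 bp at 40552 to 50905 had folds of 34.0 and 37.7 and held FOXA1 with 13.98 and 10.9. At FOSB the strongest FOXA1 peaks lay at a start of RTN2, with 44.9 and 46.7, and the FOSB locus's one reproducible FGFR1 region lay in ERCC1 with 8.42 and 13.1. No reproducible FGFR1 region lay at these distal regions of FOS and FOSL2.

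**Figure D3:**
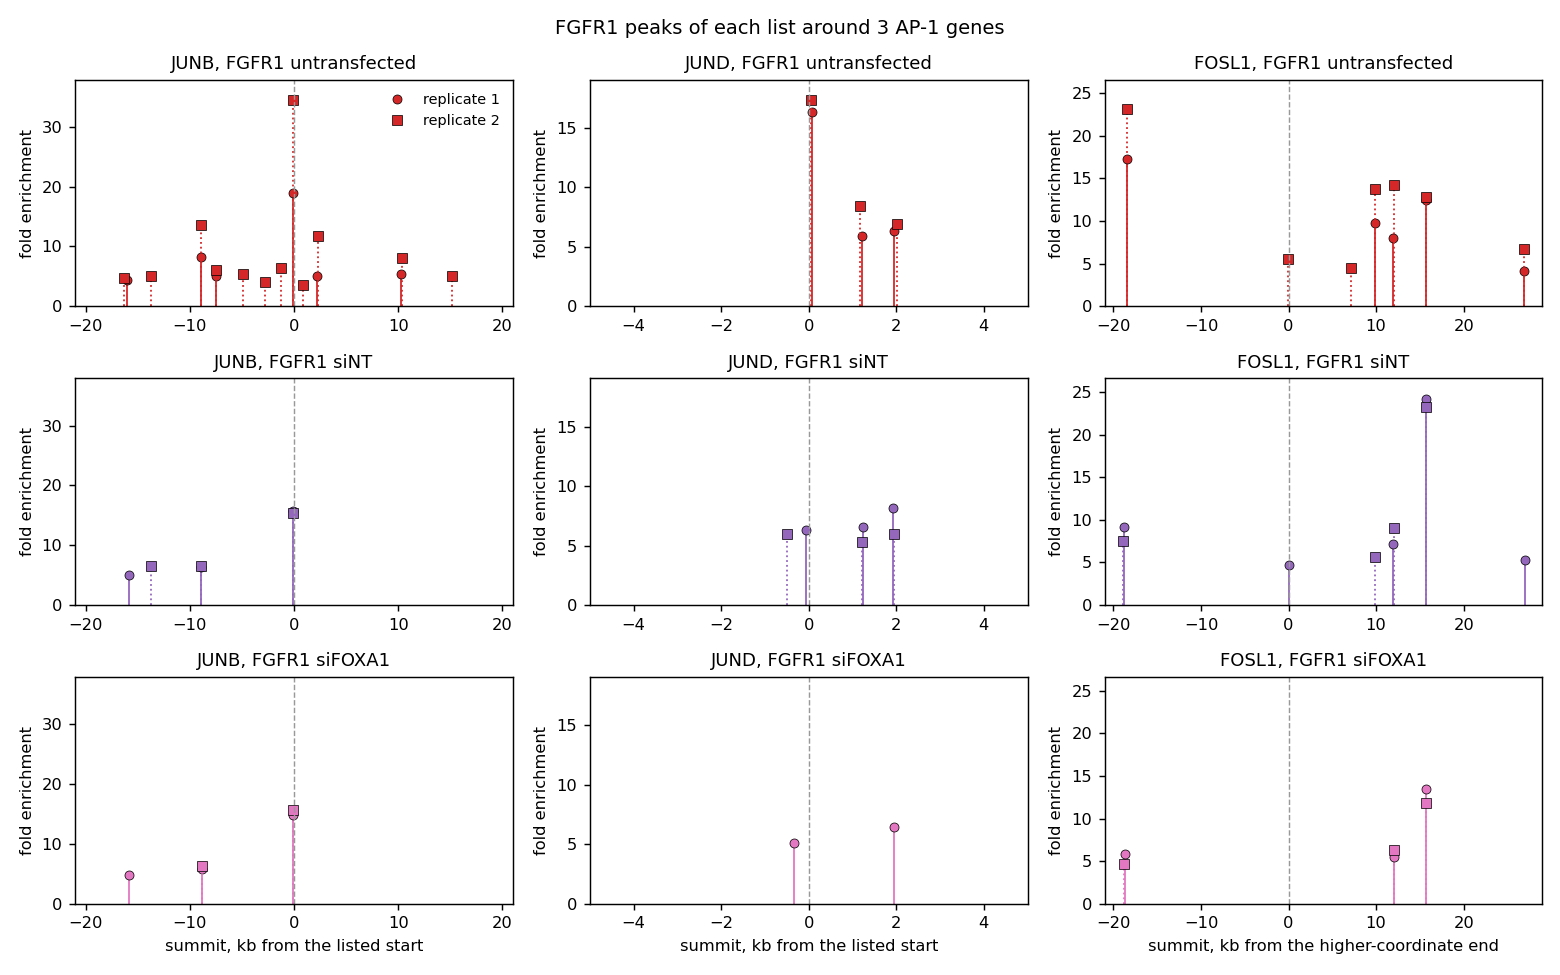
Fold enrichment (vertical axis, linear, 1 scale per gene) of each FGFR1 peak against the position of its summit in kb, at JUNB, JUND and FOSL1, for untransfected, siNT and siFOXA1 cells; circles with solid lines are replicate 1, squares with dotted lines replicate 2. The JUNB start peak stays near 15 in all 4 transfected lists, JUND has peaks in siFOXA1 replicate 1 only, and the FOSL1 neighbour at about 15.7 kb is highest with siNT.

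FGFR1 peaks in these loci were counted in siFOXA1 and siNT cells. Whether FGFR1 occupancy there depends on FOXA1 was not tested, since the knockdown was not checked here. The siNT lists held 11 and 11 peaks in the 9 loci and the siFOXA1 lists 8 and 6, so the groups did not overlap. The mean was 11 ± 0 with siNT and 7 ± 1.41 with siFOXA1 (SD, n = 2 each), a difference of -4 peaks (exact permutation test, two-sided, p = 0.333, the smallest that 2 against 2 lists allow). The ratio of 0.636 stands beside a ratio of 0.745 for the whole lists. Per 1000 peaks of the list, the loci held 1.83 and 1.67 with siNT and 1.85 and 1.19 with siFOXA1, and these ranges overlap. With each list cut to its 4332 peaks of highest -log10 q, the difference was again -4 (exact permutation p = 0.333). Untransfected lists held 18 and 35 peaks, or 3.37 and 2.66 per 1000. Transfection, depth and list length differ between untransfected and transfected cells and cannot be told apart.

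Of the 7 reproducible siNT regions, 2 were at JUNB, 2 at JUND and 3 at neighbours of FOSL1. With siFOXA1 there were 5, at JUNB and the FOSL1 neighbours. At gene ends 2 of the 9 genes had siNT regions (JUNB and JUND), beside 4.85% of all genes, and 1 had a siFOXA1 region (JUNB), beside 1.95%. The JUNB start, where FOXA1 itself was strong in untransfected cells, had overlapping folds in the siNT and siFOXA1 lists. The regions next to FOSL1 had lower folds with siFOXA1 than with siNT, with no overlap of the 2 groups. The same held for the other JUNB region, inside HOOK2. It had 6.28 and 6.58 with siNT and 5.79 and 6.25 with siFOXA1. The FIBP start had 7.22 and 9.08 with siNT and 5.47 and 6.25 with siFOXA1. The region at C11orf68 and DRAP1 had 9.10 and 7.52, then 5.79 and 4.69. The median folds of the whole lists were 5.02 and 5.01 with siNT and 4.82 and 4.69 with siFOXA1. Differences in fold between single peaks were not tested, since the lists hold no counts per region.

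**Figure D4:**
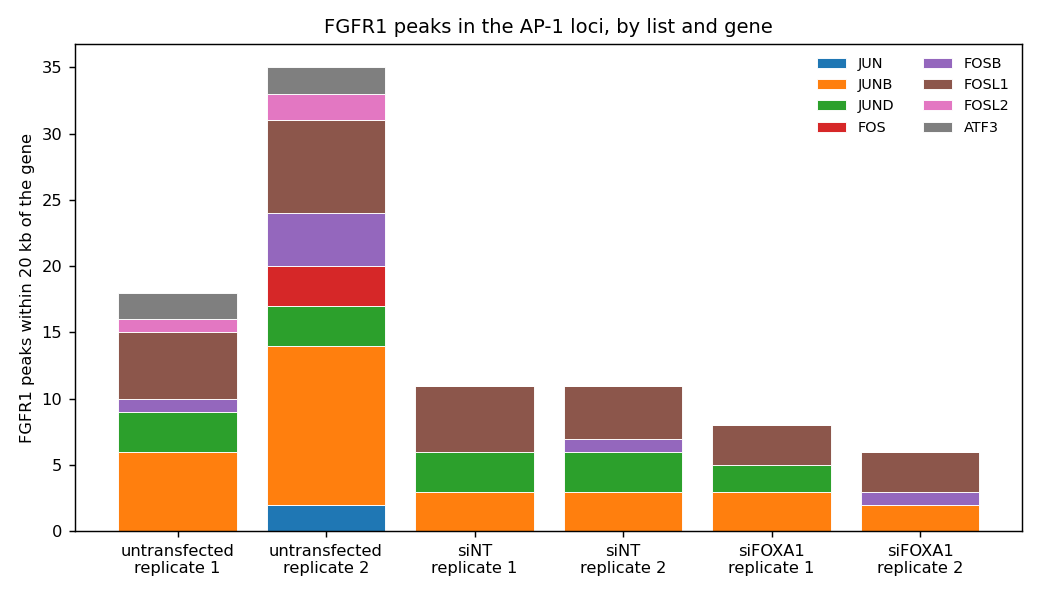
Number of FGFR1 peaks within 20 kb of the AP-1 genes (vertical axis, from 0) in each of the 6 FGFR1 lists, stacked by gene; BATF has none. The totals are 18 and 35 untransfected, 11 and 11 with siNT, and 8 and 6 with siFOXA1, and most transfected peaks belong to the JUNB, JUND and FOSL1 loci.

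Other genes of the AP-1 system were read by the same rule in 4 lists of names. Of 17 kinases and factors upstream of AP-1, 17 had H3K4me3, 13 Pol II S5P, 11 FGFR1 and 7 FOXA1 at an end, beside 66.6%, 38.9%, 19.9% and 32.3% of all genes. Among genes with H3K4me3 at an end the shares were 58.2% for Pol II S5P, 29.9% for FGFR1 and 43.8% for FOXA1. The FOXA1 count is near that background. SRF, which switches on FOS through its serum response element, had FGFR1 folds of 9.55 and 12.9, then 5.65 and 9.08 with siNT and no peak with siFOXA1. MAPK9, which encodes the JUN kinase JNK2, had 8.19 and 10.4, then 7.85 and 7.52 with siNT and 4.38 in siFOXA1 replicate 2 only. MAP3K1 had 5.91 and 8.88, and MAPK14 (p38 alpha) 5.46 and 9.33. With siNT 3 of the 17 had a reproducible region and with siFOXA1 1, beside 4.85% and 1.95%.

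Of 14 classical AP-1 targets, 6 had H3K4me3, 4 Pol II S5P, 4 FOXA1 and 3 FGFR1, beside 66.6%, 38.9%, 32.3% and 19.9% of all genes. For FGFR1, FOXA1 and Pol II S5P these counts are near or below the background. CCND1, which encodes cyclin D1, had FGFR1 folds of 21.6 and 27.8, then 20.1 and 17.9 with siNT and 16.7 and 17.2 with siFOXA1. DUSP1, a phosphatase that switches MAP kinases off, had 12.5 and 23.8, then 10.4 and 8.77, then 8.04 and 4.38. VEGFA, an angiogenic growth factor, had 13.4 and 17.1, then 7.22 and 6.27, then 7.07 in siFOXA1 replicate 1 only. At each of these targets with FGFR1, both siFOXA1 lists were below both siNT lists, or without a peak, except for VEGFA replicate 1. The whole siFOXA1 lists were also shorter than the siNT lists, with lower median folds. How often other genes show the same was not tested.

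Of 12 other AP-1 and related leucine zipper genes, 11 had H3K4me3, 8 Pol II S5P, 5 FOXA1 and 4 FGFR1, beside the same 66.6%, 38.9%, 32.3% and 19.9%. Their FOXA1 and FGFR1 counts are near the 43.8% and 29.9% of genes with H3K4me3 at an end. ATF7, MAFK and ATF4 had untransfected folds from 5.0 to 9.33 and no peak after transfection. Of 9 genes that repress AP-1 or turn it over, 9 had H3K4me3, 7 Pol II S5P, 5 FGFR1 and 4 FOXA1, read against the same shares. The FOXA1 count is again near the 43.8% of genes with H3K4me3. Those with FGFR1 were HDAC3, ZFP36, SIRT1, COP1 and FBXW7, with folds of 5.91 to 13.1. FBXW7, part of a ubiquitin ligase that acts on JUN, had 5.96 and 6.58 with siNT and 5.47 in siFOXA1 replicate 1 only. HDAC3 had no peak at an end with siNT and 4.69 in siFOXA1 replicate 2 only. ZFP36, SIRT1 and COP1 had no peak at an end in any transfected list.

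For the 4 AP-1 genes with a peak at an end in 10 or more lists, the genes with the nearest pattern were named over the 14 lists. Likeness was the Euclidean distance between within-list percentiles of the strongest peak at the ends, with 0 where a list had none. For JUNB the nearest were HOOK2 at a distance of 0, since it shares the peaks, then CCND1 at 12.1 and TMEM63B at 15.2, beside a median of 297 over all genes. For JUND they were VEGFA at 9.11, CLK4 at 25.5 and GPANK1 at 26.4, beside a median of 258. For FOSL2 they were ZNF337, ZDHHC17 and THAP8 at 10.6 to 15.9, beside a median of 142, and for FOSL1 DTX4, ZNF329 and GDF15 at 28.9 to 61.4, beside 157. FOSL1 thus had the least close neighbours of the 4, but some of its peaks lie by CCDC85B. It reached 10 lists only through its lower-coordinate end, where Pol II S5P replicate 1 and siNT replicate 2 had peaks. Its strongest H3K4me3 and H3K27ac peaks also lay at that end, over the start of CCDC85B.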

How the data were processed

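ChIP-seq peak lists of CAMA1 cells were read as deposited, 14 lists in 7 groups of 2, and the 7 inputs were not used here. Per the submitters' processing notes, hg38, Bowtie2, SAMtools, Picard and MACS2 were used, and the versions are not given in the sources used here. Peaks were deposited per library. Each deposited row gives a position, a score (not used), a fold enrichment over background (a linear ratio made by the authors), a -log10 p-value and -log10 q-value from the authors, and a summit offset. The authors' peak names disagree with the labels on the replicate of untransfected FGFR1 and give FOXA2 for the FOXA1 lists. The labels were followed.

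Chromosomes 1 to 22 and X were kept, positions were made 1-based, and reproducible regions and gene ends were joined in Python 3.11.15 with numpy 2.4.6 and pandas 2.3.3. The permutation test was enumerated exactly. The gene table (RefSeq, GRCh38.p14) gives neither exons nor UTRs. Starts and promoter sequences came from the RefSeq promoter table of the same build, which matched 8 of the 9 genes. Background fragments were recovered from the grid of the fold values and checked against the deposited p-values (tolerance 0.0001). On simulated data for 19974 genes, 300 of 300 planted gene ends were recovered. The 9 genes, the 4 lists and the markers were chosen with earlier results of these data known. All 9 genes are named. Of each list up to 5 genes with FGFR1 at an end are named, by mean percentile of fold, and for AP-1 genes with peaks in at least 10 lists the 3 nearest genes. Some genes that this rule names are not reported here. SD measures only the spread between lists, which may be technical. The permutation p takes its smallest possible value whenever the groups do not overlap, so it measures no spread. Alternatives were a -log10 q of at least 5, a reciprocal overlap of 50%, other windows and flanks, lists of equal length, each list left out and a replicate block.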

Additional observations from a re-analysis of the deposited data

How the results depend on the processing

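Of 94 alternatives to 15 results, 81 stayed within 1.5 times the main count or kept direction, 13 moved and none reversed. The siFOXA1 difference was judged by direction alone, since 2 against 2 lists cannot give a small p-value. Only this difference could be labelled reversed, and only the counts could be labelled moved. With a -log10 q of at least 5, or with a reciprocal overlap of 50%, AP-1 genes with FGFR1 at an end fell from 3 to 2. FOSL2 was the gene lost, and this fall counts as unchanged under the limit of 1.5 times. When each list was left out in turn, AP-1 genes with FGFR1 at an end numbered 3 to 6, those with Pol II S5P 4 to 7 and those with siFOXA1 regions 1 to 2. Within 20 kb, FGFR1 regions numbered 18 to 35, Pol II S5P regions 24 to 30, siNT regions 11 in both cases and siFOXA1 regions 6 to 8, since the rule then asks for 1 list. The untransfected FGFR1 counts rose to 6 and 35 without replicate 1, the shorter list. With flanks of 10 kb there were 37 H3K27ac and 19 H3K4me3 regions, and with 50 kb 113 H3K27ac, 56 H3K4me3 and 68 FOXA1 regions. The siFOXA1 difference of -4 peaks was -5 to -3 without a list. With the replicate number as a block it was again -4 (pairs -3 and -5, exact p = 0.5, the smallest that 2 pairs allow), and the labels do not say that the numbers mark a shared culture. A lower background in the transfected lists limits which weak peaks could be listed, so a missing peak there does not show absence of FGFR1.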
